A study of Mus musculus with 6 samples.

Results

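Major histocompatibility complex (MHC) class I molecules show peptides from inside the cell to CD8 T cells. A class I molecule pairs a polymorphic heavy chain with the light chain beta-2 microglobulin. The transporter Tap1-Tap2 carries peptides into the endoplasmic reticulum, and tapasin (Tapbp) holds the empty heavy chain beside the transporter until a peptide is bound. Nlrc5 is the transactivator of class I promoters, and interferons and lipopolysaccharide (LPS) raise class I genes in macrophages.

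The 10 genes described are 5 heavy chain genes (H2-K1, H2-D1, H2-T23, H2-Q6 and H2-Q7), B2m, Tap1, Tap2, Tapbp and Nlrc5. They were taken by symbol from a table of 16266 genes, and all 10 were among the 12219 genes with enough counts to be tested. Bone marrow-derived macrophages (BMDMs, cells grown from marrow into macrophages) came from 3 Capns1 knockout (KO) and 3 wild-type (WT) samples. Capns1 is the small regulatory subunit of calpains 1 and 2, which are calcium-activated proteases. Every sample of both groups had received LPS for 24 h, so no sample shows the genes at rest. The series title describes the deletion as myeloid-specific. The sources used here do not give the Cre driver, the strain or the age of the mice. The genotype labels of the 3 KO samples read CAPNS1-KO, CAPNS2-KO and CAPNS3-KO, while the design text names Capns1 alone. Separate animals or cultures are not named for the replicates, so each p-value reflects the scatter of these libraries, and that scatter may be technical.

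Total counts ran from 32631163 to 40913819 per library. Capns1 had 9.51, 9.94 and 9.13 CPM (the count scaled to the library's total) in KO libraries 1 to 3, against 492, 478 and 521 CPM in WT libraries. Each KO library was therefore low in Capns1, whatever number its genotype label carried. All 8 macrophage markers examined were present, and their summed level was 33629 to 38751 CPM in KO and 35311 to 42659.7 CPM in WT libraries. Of these, only Cd14 was called, as lower in KO. On the second principal component (19.1% of variance), KO replicate 2 and WT replicate 3 lay away from the rest of their groups. Their scores were -21.9 for that KO library, against 10.8 and 9.2 for the other KO libraries, and 17.9 for that WT library, against -5.79 and -10.3 for the other WT libraries. In edgeR's quasi-likelihood test, 14.6% of tested genes were called (adjusted p under 0.05), 8.44% higher and 6.21% lower in KO. The share was 18.3% with DESeq2, 20.7% with replicate numbers as a block, and 26.0% without the 2 libraries that lay apart.

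The heavy chain genes lie on chromosome 17 and are copies of one another, so their sequences are given first. H2-K1 and H2-D1 are the classical heavy chains, H2-T23 encodes the nonclassical molecule Qa-1, and H2-Q6 and H2-Q7 belong to the Qa-2 group. The coding sequences of H2-Q6 and H2-Q7 were 95.4% identical over aligned bases, the closest of the 10 pairs, and H2-D1 and H2-T23 were 81.1% identical, the most distant. The first 120 bases of coding exon 2, which encodes the outermost heavy chain domain, are printed below on the coding strand (GENCODE M21 transcripts, GRCm38). Capitals mark bases that differ from H2-Q7 at the same position.
H2-K1 at chr17:33999884-34000003, minus strand: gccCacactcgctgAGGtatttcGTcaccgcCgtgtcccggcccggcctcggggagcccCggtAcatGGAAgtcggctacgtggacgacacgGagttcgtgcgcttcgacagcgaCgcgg
H2-D1 at chr17:35263379-35263498, plus strand: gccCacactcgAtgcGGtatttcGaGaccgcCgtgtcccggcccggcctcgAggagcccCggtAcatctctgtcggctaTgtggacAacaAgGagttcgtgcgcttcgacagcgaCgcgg
H2-T23 at chr17:36032303-36032422, minus strand: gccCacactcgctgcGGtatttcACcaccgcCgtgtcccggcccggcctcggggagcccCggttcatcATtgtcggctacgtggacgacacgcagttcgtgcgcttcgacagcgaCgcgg
H2-Q6 at chr17:35425108-35425227, plus strand: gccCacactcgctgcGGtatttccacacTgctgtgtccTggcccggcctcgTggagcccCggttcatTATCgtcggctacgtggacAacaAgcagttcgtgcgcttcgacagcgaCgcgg
H2-Q7 at chr17:35439452-35439571, plus strand: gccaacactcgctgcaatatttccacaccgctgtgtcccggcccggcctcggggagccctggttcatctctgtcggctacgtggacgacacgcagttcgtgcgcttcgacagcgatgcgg

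Over these 120 bases, H2-Q6 differed from H2-Q7 at 14 positions, H2-T23 at 10, and H2-K1 and H2-D1 at 15 each. Across whole transcripts, the share of 32-base words that also occur in transcripts of other genes was 48.9% for H2-Q6, 47.3% for H2-Q7, 47.1% for H2-T23, 26.5% for H2-D1 and 19.1% for H2-K1. With 100-base words the shares were 10.8%, 17.2%, 7.28%, 4.09% and 0% in the same order of genes. The sources used here do not say how reads that match several genes were counted. The count of any one of these 5 rows is therefore uncertain, the more so for H2-Q6, H2-Q7 and H2-T23. In contrast, B2m and Nlrc5 shared none of their 32-base words, and Tap1, Tap2 and Tapbp shared 1.44%, 1.36% and 5.44%.

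H2-Q7 was the member with the largest difference. It had 16.7, 12.5 and 12.7 CPM in KO libraries and 0.98, 0.707 and 1.3 CPM in WT libraries. The groups did not overlap, and the lowest KO library held many times the counts of the highest WT library (414 against 53). The fitted difference was 13.8-fold, a log2 fold change of 3.78 ± 0.23 SE (edgeR, adjusted p = 2.06e-06). On the log2(FPKM + 1) scale, which understates changes of low genes, the log2 fold change was 2.61. FPKM is the count scaled by gene length and by the library's total.

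H2-Q6 moved the other way. It had 7.38, 3.49 and 6.8 CPM in KO libraries, against 23.2, 22.4 and 27.4 CPM in WT libraries. Every KO library was below every WT library. The log2 fold change was -2.08 ± 0.22 SE (edgeR, adjusted p = 1.08e-04). Both calls held under all 15 alternative settings, including each that left out 1 library.

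The balance between the H2-Q6 and H2-Q7 rows thus differed more than their total. The MHC haplotype of neither group is stated, so a difference in alleles and a difference in expression cannot be told apart for these rows. The same limit holds for H2-K1, H2-D1 and H2-T23, and for the sums and ratios of heavy chain rows. It also holds for the other H2 rows named below, among them H2-Q1, H2-Q2 and H2-Q9. H2-Q7 took 69.4%, 78.2% and 65.1% of the counts of the pair in KO libraries, with exact binomial 95% intervals of 66.2 to 72.5%, 74.7 to 81.4% and 61.2 to 68.8%. In WT libraries it took 4.05%, 3.06% and 4.51%, with intervals of 2.82 to 5.62%, 2.05 to 4.4% and 3.39 to 5.85%. These intervals cover counting error only. The shares did not overlap between groups (two-sided exact permutation test, p = 0.1, the smallest that 3 against 3 libraries can give). The pair is not a closed set for shared sequence. H2-Q6 shares more of its 32-base words with H2-Q4 than with H2-Q7 (18.2%). H2-Q7 shares more of its words with H2-Q5, which had no row, than with H2-Q6 (23.2%). H2-Q4 averaged 216 CPM in KO and 268 CPM in WT libraries. The part of reads that match H2-Q4 or H2-Q5 in the balance and total of the pair was not tested. The summed count of the pair was 24.1, 16.0 and 19.5 CPM in KO and 24.2, 23.1 and 28.7 CPM in WT libraries. The sum, entered as 1 row in place of the pair, had a log2 fold change of -0.38 ± 0.15 SE and was not called (edgeR, adjusted p = 0.126). Per length the sum was 11.8 ± 2.29 FPKM in KO and 11.8 ± 1.43 FPKM in WT libraries (SD, n = 3 each), since the tables imply a longer gene for H2-Q6 (2180 bases) than for H2-Q7 (1536 bases).

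**Figure D1:**
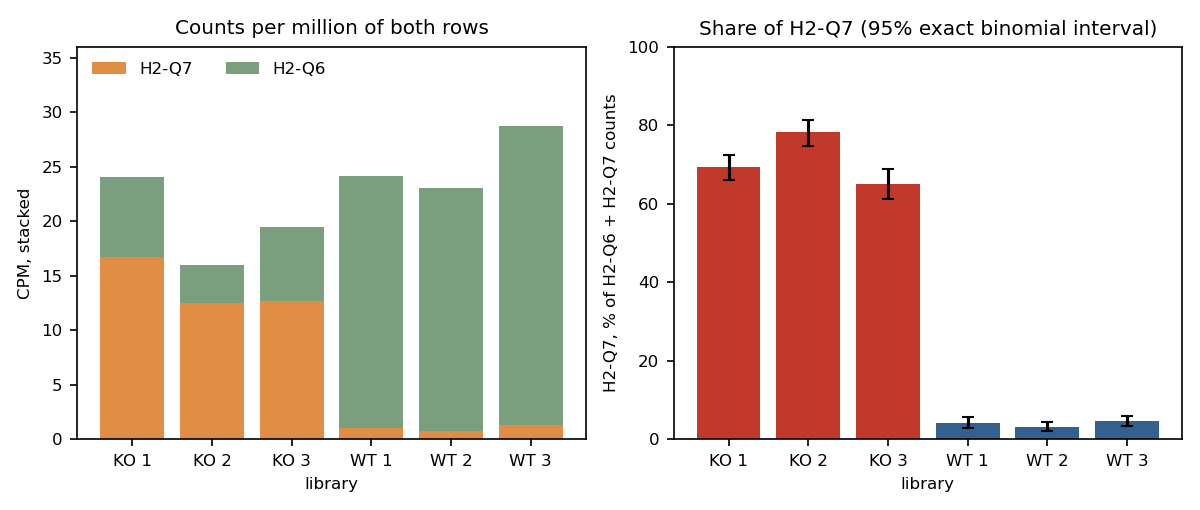
H2-Q6 and H2-Q7 in each library. Left, stacked bars of CPM (KO libraries, then WT libraries); right, H2-Q7 as a percentage of the counts of the pair with 95% exact binomial intervals, 65.1 to 78.2% in KO and 3.06 to 4.51% in WT libraries.

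H2-K1, a classical heavy chain, was higher in KO. It had 1754, 1823 and 1771 CPM in KO libraries and 1265, 1276 and 1206 CPM in WT libraries. The groups were apart, with means of 1782 ± 35.8 CPM in KO and 1249 ± 37.6 CPM in WT (SD, n = 3 each). The difference was 1.41-fold, a log2 fold change of 0.49 ± 0.087 SE (edgeR, adjusted p = 0.00326). Over the 15 alternatives it ranged from 0.43 to 0.53 and was called in each.

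H2-D1, the other classical heavy chain, had 3263, 3254 and 3225 CPM in KO libraries, against 2892, 2904 and 3045 CPM in WT libraries. The 3 KO libraries all stood above the WT libraries, but the gap was small. The log2 fold change was 0.12 ± 0.086 SE and was not called (edgeR, adjusted p = 0.413). H2-T23 likewise had 779, 853 and 886 CPM in KO and 763, 713 and 714 CPM in WT libraries, with the lowest KO library just above the highest WT library. Its log2 fold change was 0.18 ± 0.094 SE (edgeR, adjusted p = 0.244). The ratio of H2-K1 to H2-D1 counts was 0.537, 0.56 and 0.549 in KO libraries and 0.438, 0.439 and 0.396 in WT libraries. Those ratios did not overlap (two-sided exact permutation test, p = 0.1, the smallest possible).

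Because reads may be moved among the 5 heavy chain rows by the way shared sequence was counted, their sum was also fitted as 1 row. The 5 rows are not a closed set for shared sequence either. H2-T23 shares 24.6% of its 32-base words with H2-T-ps, and H2-D1 shares 9.14% with H2-Q1. If reads with several matches were left out of the counts, the sum lacks them too. The part of such reads in the sum was not tested. These limits apply to all values of the heavy chain sum. The heavy chain sum was 5819.5, 5946 and 5902 CPM in KO libraries and 4944, 4916 and 4994 CPM in WT libraries. The groups were apart by far more than their spread, 5889 ± 64.0 CPM in KO and 4951 ± 39.4 CPM in WT (SD, n = 3 each; two-sided exact permutation test, p = 0.1, the smallest possible). In the fit across all genes, however, the log2 fold change of 0.23 ± 0.084 SE (1.17-fold) was not called (edgeR, adjusted p = 0.0964). It was called with DESeq2 at a log2 fold change of 0.24 (adjusted p = 0.0453), and adjusted p over the alternatives ranged from 0.0453 to 0.249. H2-Q6 and H2-Q7 made up only 0.338 ± 0.0727% of the heavy chain counts in KO and 0.511 ± 0.0566% in WT libraries (SD, n = 3 each), so the sum was set almost wholly by H2-D1, H2-K1 and H2-T23.

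Per length, the light chain gene B2m was the most abundant member, ahead of H2-D1, H2-K1 and H2-T23. It had 4117, 5036 and 4339 FPKM in KO libraries and 4905, 4803 and 3552 FPKM in WT libraries. The groups overlapped in part, and the extremes were KO replicate 2 (high) and WT replicate 3 (low), the same libraries that stood apart on the second principal component. The log2 fold change was 0.0062 ± 0.13 SE (edgeR, adjusted p = 0.983). Without both of those libraries it was -0.24 (edgeR, adjusted p = 0.0761), also not called. The part of that component in the level of B2m was not tested.

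The levels per length fell in the same order in both groups from B2m down to Tap2. In KO libraries the means were 4497 ± 479 FPKM for B2m, 1871 ± 11.5 for H2-D1, 835 ± 16.8 for H2-K1, 637 ± 41.9 for H2-T23, 367 ± 24.9 for Tapbp, 87.6 ± 5.68 for Tap1 and 36.5 ± 3.47 for Tap2 (SD, n = 3). In WT libraries they were 4419.8 ± 754, 1698 ± 48.9, 585 ± 17.6, 554 ± 21.5, 375 ± 52.4, 88.8 ± 8.42 and 39.2 ± 4.21 FPKM in the same gene order (SD, n = 3). Neighbours in this order were farther apart than their spread in both groups, except H2-K1 and H2-T23 in WT, whose libraries overlapped (565 to 598 and 541 to 579 FPKM). Below Tap2, the order differed between the groups. H2-Q7 (9.1 ± 1.55 FPKM), Nlrc5 (3.45 ± 0.174) and H2-Q6 (2.7 ± 0.962) followed in KO libraries, of which Nlrc5 and H2-Q6 overlapped. H2-Q6 (11.2 ± 1.25 FPKM), Nlrc5 (4.78 ± 0.42) and H2-Q7 (0.647 ± 0.192) followed in WT libraries (SD, n = 3).

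The peptide transporter and its partner did not pass the test. Tap1 had 249.95, 235 and 268 CPM in KO libraries and 262, 227 and 274 CPM in WT libraries, and Tap2 had 93.1, 81.3 and 98.1 CPM in KO and 90.5, 92.7 and 109.7 CPM in WT libraries. Both pairs of groups overlapped. The log2 fold changes were -0.043 ± 0.10 SE for Tap1 (edgeR, adjusted p = 0.837) and -0.13 ± 0.11 SE for Tap2 (edgeR, adjusted p = 0.504). Tapbp, tapasin, had 1064, 933 and 1033 CPM in KO libraries and 1041, 881 and 1169 CPM in WT libraries. Here too the groups overlapped, with a log2 fold change of -0.053 ± 0.11 SE (edgeR, adjusted p = 0.817). A p that misses the threshold does not show equal levels. Over the 15 alternatives the estimates lay between -0.11 and 0.042 for Tap1, -0.18 and 0.022 for Tap2, and -0.14 and 0.087 for Tapbp. The alternatives refit the same libraries, so these ranges do not bound the true differences. Exons of Tap1 overlap the immunoproteasome gene Psmb9 on the opposite strand, and those of Tapbp overlap Zbtb22 on the same strand. Those neighbours were not called either (log2 fold changes -0.21 and -0.050, edgeR, adjusted p = 0.257 and 0.81).

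Nlrc5, on chromosome 8 at 94434335 to 94527272, was lower in KO. It had 27.8, 25.7 and 28.3 CPM in KO libraries, against 41.5, 35.1 and 36.8 CPM in WT libraries. All KO libraries lay below all WT libraries. The log2 fold change was -0.49 ± 0.11 SE, 0.71-fold (edgeR, adjusted p = 0.0105). This call was lost without WT replicate 1, the highest library (log2 fold change -0.42, edgeR, adjusted p = 0.0619), and held under the other 14 alternatives. In the same libraries H2-K1 and H2-Q7 were called higher and H2-Q6 lower, while H2-D1, H2-T23, B2m, Tap1, Tap2 and Tapbp were not called. The part of Nlrc5 in the levels of these genes was not tested.

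Counted together, 2 members were called higher in KO (H2-K1 and H2-Q7), 2 were called lower (H2-Q6 and Nlrc5) and 6 were not called, against 14.6% of all tested genes called. The groups did not overlap for 6 members, all 5 heavy chains and Nlrc5, against 33.6% of tested genes. The median log2 fold change of the 10 was -0.019, beside -0.011 over all tested genes. The 3 loading genes had a median of -0.053 and the 5 heavy chains one of 0.18. In the same RNA, 4 of 6 fibroblast and stroma markers (Col1a1, Col1a2, Dcn and Pdgfra) were called higher. The summed level of the 6 was 337 to 412 CPM in KO and 157 to 193 CPM in WT libraries, and none was at 0. Neutrophil and precursor markers summed to 740 to 938 CPM in KO and 674 to 881 CPM in WT libraries, with 2 of 5 called higher and 2 lower. In bulk RNA, more cells of a type and more RNA per cell cannot be told apart, and the part of these cells in the class I levels was not tested. Summed dendritic cell markers were 0.833 to 1.02 CPM in KO and 0.782 to 1.11 CPM in WT libraries, with Xcr1 at or near 0 and Zbtb46 and Ccr7 detected. Summed B cell markers, nearly all from Cd79b, were 6.28 to 8.2 CPM in KO and 8.82 to 11.2 CPM in WT libraries, and Cd79b was not called (edgeR, adjusted p = 0.0587). T cell and NK cell markers with a row summed to at most 0.0306 CPM and 0.0284 CPM in KO, and at most 0.0865 CPM and 0.101 CPM in WT libraries.

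**Figure D2:**
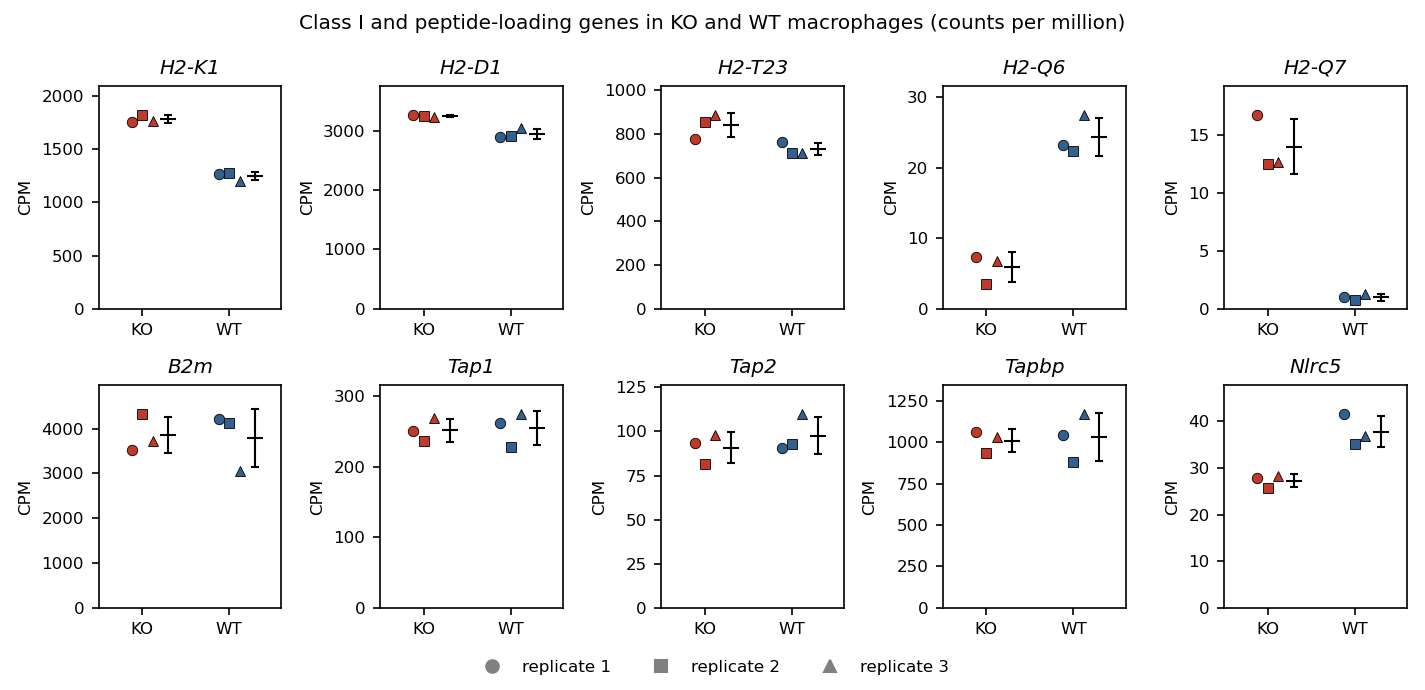
CPM of the 10 genes in each library, KO left and WT right, with a linear axis from 0. Markers show replicate numbers, and bars give mean and SD (n = 3). H2-K1, H2-D1, H2-T23 and H2-Q7 lie higher and H2-Q6 and Nlrc5 lower in all KO than in all WT libraries, and B2m, Tap1, Tap2 and Tapbp overlap.

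**Figure D3:**
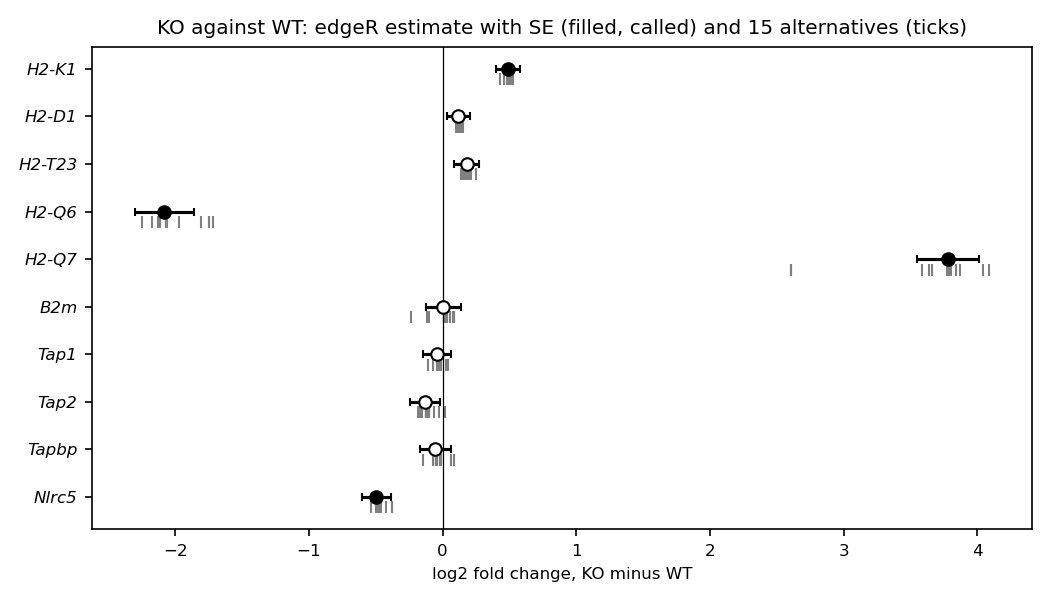
Log2 fold change (KO minus WT) of the 10 genes in edgeR with its SE, filled where called, and the values under 15 alternative settings as ticks below. H2-K1 and H2-Q7 stay above 0 and H2-Q6 and Nlrc5 below it in each, while the ticks of B2m, Tap1, Tap2 and Tapbp cross 0.

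The promoters of 4 heavy chains are shown because their layouts are similar while the log2 fold changes of their rows were unlike. Those were 0.49 for H2-K1, 0.12 for H2-D1 (not called), -2.08 for H2-Q6 and 3.78 for H2-Q7. Differences between these genes were not tested. Class I promoters are known to carry an NF-kB site, an interferon-stimulated response element (ISRE) next to it, and an element bound by the RFX, CREB and NF-Y factors through which Nlrc5 acts. Each window spans 250 bases before to 50 after the start (RefSeq, GRCm38.p6), printed on the gene's strand. Capitals mark matches on either strand to the NF-kB motif (the 11-base run of capitals that begins with GGGG), the ISRE core TTTCACTTC, the CREB half-site TGACG and the NF-Y box CCAAT. None of the matches overlap.
H2-K1 at chr17:34000298-34000597, minus strand: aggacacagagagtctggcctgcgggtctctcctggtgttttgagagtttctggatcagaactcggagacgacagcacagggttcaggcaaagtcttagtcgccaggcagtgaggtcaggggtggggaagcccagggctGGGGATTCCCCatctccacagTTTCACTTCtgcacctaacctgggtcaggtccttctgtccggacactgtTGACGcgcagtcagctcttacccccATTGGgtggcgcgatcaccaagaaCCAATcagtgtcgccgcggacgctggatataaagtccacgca
H2-D1 at chr17:35262844-35263143, plus strand: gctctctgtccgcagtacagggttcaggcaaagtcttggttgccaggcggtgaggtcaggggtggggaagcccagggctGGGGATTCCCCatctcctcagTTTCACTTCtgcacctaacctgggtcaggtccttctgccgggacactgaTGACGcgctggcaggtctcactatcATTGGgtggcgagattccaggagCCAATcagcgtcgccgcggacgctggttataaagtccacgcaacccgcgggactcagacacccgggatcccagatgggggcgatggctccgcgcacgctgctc
H2-Q6 at chr17:35424600-35424899, plus strand: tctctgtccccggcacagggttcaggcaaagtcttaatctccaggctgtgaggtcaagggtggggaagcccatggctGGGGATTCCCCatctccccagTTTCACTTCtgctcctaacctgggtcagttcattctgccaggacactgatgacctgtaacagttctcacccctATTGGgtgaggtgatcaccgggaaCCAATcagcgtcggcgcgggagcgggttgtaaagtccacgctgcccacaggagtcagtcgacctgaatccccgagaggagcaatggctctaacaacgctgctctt
H2-Q7 at chr17:35438905-35439204, plus strand: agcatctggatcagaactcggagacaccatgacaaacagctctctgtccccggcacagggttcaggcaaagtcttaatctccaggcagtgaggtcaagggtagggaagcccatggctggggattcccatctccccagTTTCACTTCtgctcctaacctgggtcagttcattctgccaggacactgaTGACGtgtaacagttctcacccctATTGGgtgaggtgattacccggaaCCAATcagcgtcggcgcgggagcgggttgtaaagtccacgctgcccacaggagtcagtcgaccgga

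Promoters of 8 of the 10 members were in the table. The exact 11-base NF-kB motif occurred in the windows of H2-K1, H2-D1 and H2-Q6 and in 0.0304% of the 32851 promoter windows of the table. The H2-Q7 window holds the first 10 of these 11 bases, which exact matching left in lower case. The ISRE core occurred in those 3 and in H2-Q7, against 0.505% of windows. The CREB half-site occurred in H2-K1, H2-D1, H2-Q7, B2m and Tap1 (20.8% of windows), and the NF-Y box in all 8 (37.4% of windows). H2-T23 held only the NF-Y box. These matches describe exact letters in the reference assembly and not binding, and near matches were not searched for.

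Other heavy chain and class I-like genes also differed in both directions. Of 17 tested genes on this list, 3 were called higher and 5 lower in KO (47.1%, against 14.6% of all tested genes), with a median log2 fold change of -0.17. H2-Q2, in the same gene cluster as H2-Q7, had 14.0, 19.99 and 21.97 CPM in KO libraries and 10.3, 9.41 and 8.95 CPM in WT libraries (log2 fold change 0.94 ± 0.17 SE, edgeR, adjusted p = 0.00327). H2-Q9 had 37, 30 and 22 counts in KO libraries and 0 in each WT library. Against 3 counts per WT library, an approximate upper limit for a count of 0, the KO mean of this row was 10.7-fold higher. That ratio takes no account of counting error in the KO libraries, so it is not a strict lower bound. The row was called (edgeR, adjusted p = 7.34e-04). H2-M2 had 3.63, 2.23 and 5.09 CPM in KO and 1.5, 1.24 and 1.22 CPM in WT libraries (log2 fold change 1.44, edgeR, adjusted p = 0.00855). H2-Q1 was lower, with 25.9, 27.5 and 32.2 CPM in KO and 40.6, 37.1 and 36.4 CPM in WT libraries (log2 fold change -0.44, edgeR, adjusted p = 0.0242). Its call was lost without KO replicate 1, WT replicate 1 or WT replicate 2 (adjusted p of up to 0.137). The other falls were H2-Q4 (-0.34), H2-T24 (-0.36), the IgG receptor Fcgrt (-0.33) and the iron regulator Hfe (-0.35), named here after their values were seen. Each of those 4 lost its call without KO replicate 1 or WT replicate 1 (adjusted p of 0.0797 to 0.17) and without at least 2 further libraries. H2-Q1, H2-Q2, H2-Q4 and H2-M2 share 31.6%, 30.8%, 42.3% and 2.94% of their 32-base words with other genes. The Q rows among them are therefore uncertain in the same way as H2-Q6 and H2-Q7. Word sharing was not measured for H2-Q9, so whether its reads also match H2-Q7 is not known.

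The differences among heavy chains did not extend evenly over the MHC. Between 33 and 38 Mb of chromosome 17, 24 of 136 tested genes were called (17.6%, 15 higher and 9 lower in KO), against 14.6% over all tested genes. Without the H2 rows, the members and the genes of the lists, 7 were higher and 5 lower among 109 tested genes, beside 31 higher and 23 lower among 496 on the rest of the chromosome. H2-DMb1, a chain gene of the class II peptide editor, had 7.44, 10.3 and 11.3 CPM in KO libraries and 2.1, 1.46 and 1.08 CPM in WT libraries. Its log2 fold change was 2.63 ± 0.26 SE (edgeR, adjusted p = 5.29e-05), and it shares 36.9% of its words with H2-DMb2. The other chain genes H2-DMb2 and H2-DMa, named here after their values were seen, were not called. Their log2 fold changes were -0.048 and -0.235 (edgeR, adjusted p = 0.902 and 0.121). The meiotic mismatch repair gene Msh5 (-1.57) and the lymphotoxin gene Ltb (-0.98) were lower. The ribosomal protein gene Rps18 (1.31; 85.8% of its words occur elsewhere) and the class II chains H2-Ab1 (0.75) and H2-Eb1 (0.70) were higher. The call of H2-Eb1 was lost without KO replicate 1, KO replicate 3, WT replicate 1 or WT replicate 2 (adjusted p of up to 0.111).

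**Figure D4:**
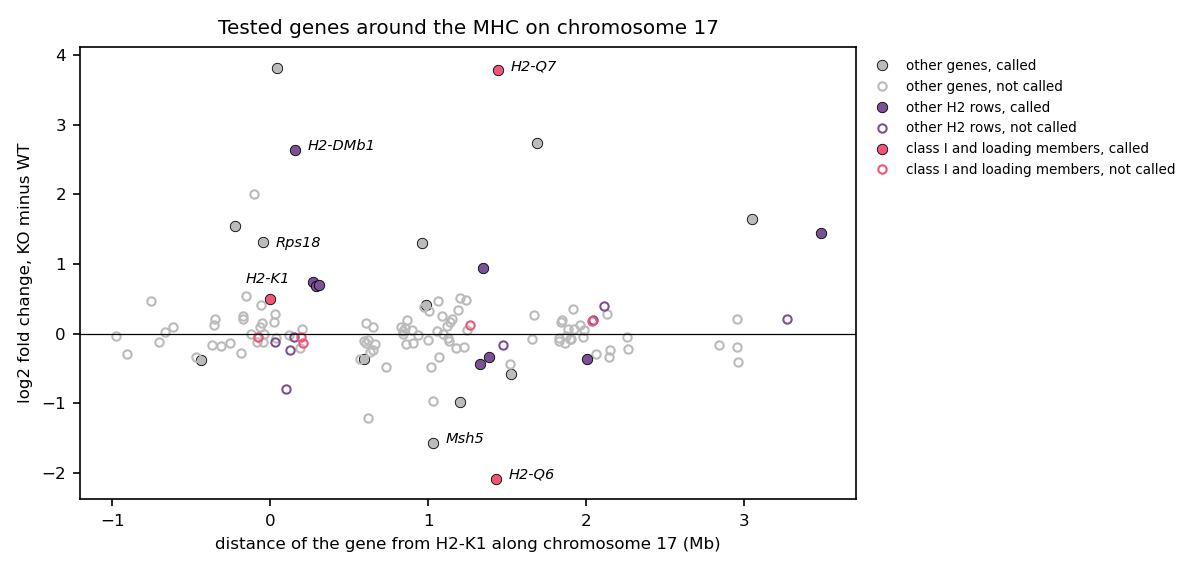
Log2 fold change (KO minus WT) of the 136 tested genes between 33 and 38 Mb of chromosome 17 against their distance from H2-K1 in Mb, filled where called. H2-Q6 at -2.08 and H2-Q7 at 3.78 lie next to each other, and most genes that are not H2 rows lie near 0.

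Of the genes that fold and edit class I in the endoplasmic reticulum, 4 of 16 tested were called higher and 0 lower in KO (25.0%, against 14.6% of all tested genes; median log2 fold change 0.18). Calreticulin, Calr, a chaperone of the loading complex, had 2388, 2524 and 1990.0 CPM in KO libraries and 1641, 1316 and 1490.0 CPM in WT libraries. It was higher in every KO library (log2 fold change 0.61 ± 0.12 SE, edgeR, adjusted p = 0.00643). The chaperone Hsp90b1 (0.48), the signal peptide peptidase H13 (0.38) and the translocon subunit Sec61a1 (0.32) were also called. H13 lost its call without KO replicate 3 or WT replicate 1 (adjusted p of up to 0.0867), and Sec61a1 without any 1 of the 6 libraries (adjusted p of 0.0564 to 0.124). Genes of this list that were not called included the disulfide isomerase Pdia3, calnexin (Canx) and the trimming enzyme Erap1. Their log2 fold changes were 0.18, 0.13 and -0.061 in that order (edgeR, adjusted p = 0.274, 0.463 and 0.775).

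On the immunoproteasome and peptide supply list, 2 of 20 tested genes were called higher and 0 lower (10.0%, against 14.6% of all tested genes; median 0.12). The immunoproteasome subunits Psmb8, Psmb9 and Psmb10 had log2 fold changes of 0.060, -0.21 and 0.088 and were not called (edgeR, adjusted p = 0.774, 0.257 and 0.638). Psmb5, the constitutive subunit that Psmb8 replaces, had 180.5, 223 and 213 CPM in KO libraries and 90.9, 86.7 and 83.5 CPM in WT libraries (log2 fold change 1.22 ± 0.11 SE, edgeR, adjusted p = 3.55e-05), but 70.9% of its words occur in other genes. The peptidase Thop1 was called as well (0.51), except without KO replicate 3 or WT replicate 2 (adjusted p = 0.0817 and 0.0695).

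Among factors that act on class I promoters, 0 of 18 tested genes were called higher and 4 lower in KO (22.2%, against 14.6% of all tested genes; median log2 fold change -0.17). Irf1, the interferon-induced activator that binds the ISRE, had 108, 106 and 97.5 CPM in KO libraries and 146, 142 and 127 CPM in WT libraries (log2 fold change -0.44 ± 0.10 SE, edgeR, adjusted p = 0.0142). Sp1 (-0.35), Irf8 (-0.33) and Rfx5 (-0.39), a subunit of the RFX complex with which Nlrc5 binds promoters, were also called lower. All 4 calls were sensitive to single libraries. They were lost without KO replicate 1, KO replicate 3, WT replicate 1 or WT replicate 2, and those of Sp1, Irf8 and Rfx5 also without WT replicate 3 and that of Rfx5 also without KO replicate 2 (adjusted p of 0.0535 to 0.145). The RFX partners Rfxap and Rfxank were not called (-0.16 and -0.065). For interferon ligands, receptors and signalling, 0 of 14 tested genes were called higher and 1 lower (7.14%, against 14.6% of all tested genes; median -0.18). That gene was the receptor subunit Ifnar2 at 232, 225 and 219 CPM in KO and 305, 312 and 314 CPM in WT libraries (log2 fold change -0.48 ± 0.090 SE, edgeR, adjusted p = 0.00419).

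**Figure D5:**
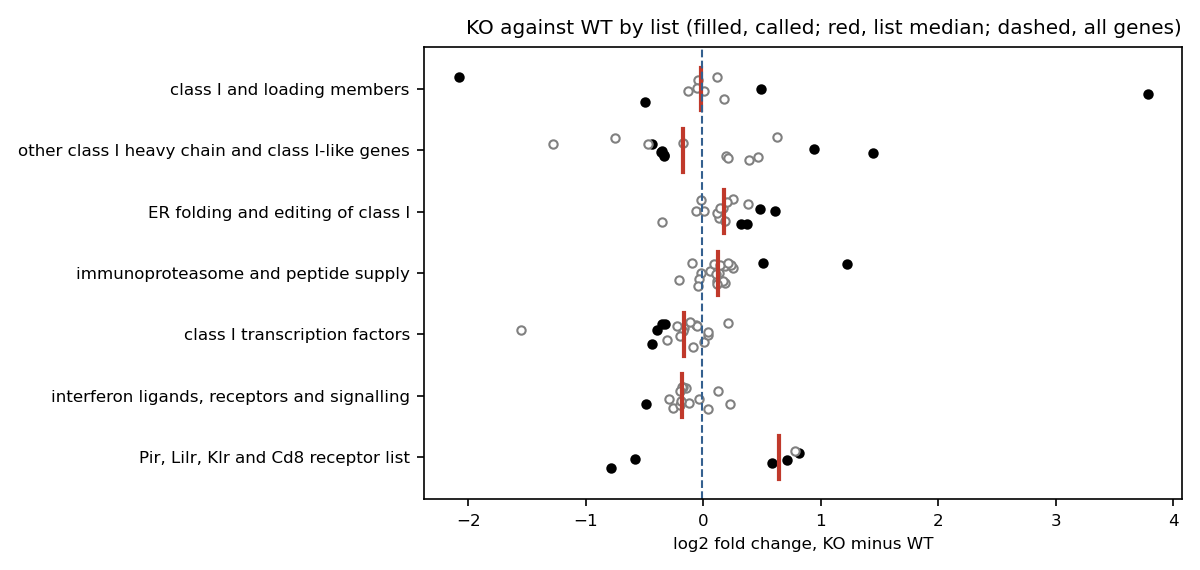
Log2 fold change (KO minus WT) of tested genes by list, filled where called, with each list's median in red and the median of all 12219 tested genes (-0.011) dashed. H2-Q9, at 0 counts in WT, is left out of the points. Called transcription factors lie below 0 and called folding genes above it.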

How the data were processed

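RNA of 6 samples was measured, 3 KO and 3 WT, grouped by sample title. The authors deposited raw read counts per gene and FPKM values. Per the labels' protocols, the libraries were strand-specific and made from total RNA. Per the submitters' processing notes, fastp, HISAT2, HTSeq and the mm10 build were used. The sources used here do not give versions, the annotation, the strand setting or the handling of reads with several matches. The deposited FPKM came within 1% of count over implied gene length and column total in 99.99% of entries backed by 10 or more counts.

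The main test was the quasi-likelihood F test of edgeR 4.0.16 (R 4.3.3) on group, after filterByExpr and TMM scaling, adjusted by Benjamini-Hochberg over 12219 genes. A called gene has an adjusted p under 0.05. SE is the log2 fold change divided by the square root of F. Sums of rows replaced those rows in the count table before the fit. limma 3.58.1 and DESeq2 1.42.0 served as alternatives, and the fit was tested on simulated counts. At this depth 3 counts correspond to 0.0733 to 0.0919 CPM. Positions came from RefSeq (GRCm38.p6) through Entrez identifiers, matched for 16189 rows. Words and exons came from GENCODE M21.

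The members, the 6 lists (99 of 119 entries had a row) and the alternatives were chosen with earlier results of these data known. Named genes were the members, Capns1, up to 4 called genes of smallest adjusted p per list, up to 6 called genes of largest change in the MHC region with mean CPM of at least 5, and the 5 genes most correlated with Nlrc5 and with H2-Q7.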

Additional observations from a re-analysis of the deposited data

How the results depend on the processing

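Over 15 alternatives (RLE scaling, DESeq2, 2 other count filters, 3 limma-trend settings on log2 FPKM, a replicate block, each library left out, and KO replicate 2 and WT replicate 3 left out together), the calls of H2-K1, H2-Q6 and H2-Q7 held in each. Members called higher in KO numbered 2 throughout. Members called lower numbered 1 to 2 when 1 library was left out, since Nlrc5 lost its call without WT replicate 1. Calls over all genes numbered 1790, 1119 to 1741 with 1 library left out (1119 without KO replicate 1, 1138 without WT replicate 1 and 1149 without KO replicate 3), and 3186 without both libraries that stood apart. The heavy chain sum was called with DESeq2 alone (log2 fold change 0.24), and summing every class I heavy chain row gave 0.18 (adjusted p = 0.19). With 1 library left out the heavy chain sum ranged from 0.21 to 0.26 and the H2-Q6 and H2-Q7 sum from -0.52 to -0.25. The replicate block called the H2-Q6 and H2-Q7 sum (log2 fold change -0.39, adjusted p = 0.0384). The numbers share no stated origin. Deviations of same-numbered libraries correlated at -0.158, 0.342 and 0.282 for replicates 1 to 3. KO replicates 2 and 3 correlated best with the WT library of their own number, and KO replicate 1 with WT replicate 3 (0.394). With 3 libraries per group, these values cannot decide whether same-numbered libraries share an origin. The block took calls over all genes to 2526. Directions of genes near 0 turned. Without both libraries that stood apart, log2 fold changes were -0.24 for B2m, 0.042 for Tap1, 0.022 for Tap2 and 0.087 for Tapbp. Without WT replicate 3 alone they were -0.12 for B2m, 0.026 for Tap1 and 0.061 for Tapbp, and without KO replicate 2 alone -0.10 for B2m. With 1 library left out, log2 fold changes ranged from -0.12 to 0.087 for B2m, -0.11 to 0.026 for Tap1, -0.18 to -0.024 for Tap2, -0.14 to 0.061 for Tapbp and -0.54 to -0.42 for Nlrc5. The causes of these changes were not tested. Depth did not limit the abundant members, and H2-Q7 rested on 28 to 53 counts in WT libraries.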

Other observations

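Genes of the paired immunoglobulin-like (Pir), Lilr and Klr receptor families, some of which bind class I, were also examined. Of 6 tested genes, 3 were called higher and 2 lower in KO (83.3%, against 14.6% of all tested genes). The inhibitory receptor Pirb had 1009.6, 953 and 978 CPM in KO libraries and 644, 583 and 704 CPM in WT libraries (log2 fold change 0.58 ± 0.10 SE, edgeR, adjusted p = 0.00257). Lilrb4a (-0.58) and Lilr4b (-0.79) were lower, and Klra2 (0.71) and Pira2 (0.81) were higher. The call of Pira2, named after its values were seen, was lost without KO replicate 1, WT replicate 1 or WT replicate 2 (edgeR, adjusted p of 0.0648 to 0.0751). Pirb, Pira2, Lilrb4a and Lilr4b share 44.8%, 96.5%, 97.2% and 34.6% of their 32-base words with other genes, so their counts are uncertain.

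Across the 6 libraries, the genes of mean CPM of at least 5 whose log2(CPM + 0.5) correlated most with Nlrc5 were Endod1, Exoc2, Gm5431, Wdfy2 and Tlr3 (Pearson's r of 0.992 to 0.998 among 9089 genes). Those most correlated with H2-Q7 were Bgn, Gorasp2, Lox, Podnl1 and Pcolce (r of 0.996 to 0.998), of which Bgn stood at 175, 143 and 155 CPM in KO and 29.7, 28.9 and 38.9 CPM in WT libraries. All points share the same 3 KO and 3 WT libraries, and no test was made.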
